A study of Homo sapiens with 24 samples.

Results

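The comparison was between 2 stable derivatives of THP-1, a human monocytic leukaemia cell line, both treated with doxycycline (DOX). One derivative carried an inducible NLRP4 coding sequence and the other the empty vector. The members are the 8 arrays whose labels name either line with DOX, 4 from each line, out of 24 arrays in the series. They were described across all 18417 genes that the array annotation names with a single symbol.

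All lines were made with the pSLIK lentiviral vector. The NLRP4 line carried FLAG-tagged NLRP4 behind a tetracycline-responsive promoter, and G418 selected for the neomycin resistance that the vector line carried too. Both groups received DOX at 1 µg/ml for 6 h at 50000 cells per well of a 96-well plate, so DOX itself was in both arms. The same 2 lines without DOX (4 arrays each) and a line with inducible NOD1 and DOX (4 arrays) are given beside the comparison. Infection was kept at low copy. The sources used here do not state whether a selected line was 1 clone or a pool. The plate order was set in advance and not randomised, and the arrays are numbered in a block for each line, so line and place in that order cannot be told apart. The labels do not call the 4 wells of a group separate cultures, and the spread that the p-values rest on may therefore be technical.

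NLRP4 belongs to the NLR family, cytosolic proteins with a nucleotide-binding domain and leucine-rich repeats. Several relatives, such as NOD1, NOD2 and NLRP3, sense bacterial products or cell damage and switch on NF-kB or an inflammasome. NLRP4 has instead been described mostly as a brake: it recruits the ubiquitin ligase DTX4 to the kinase TBK1, which limits type I interferon induction, and it binds Beclin 1, a regulator of autophagy. Genes of these pathways were therefore listed and are described after the single genes.

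Values are log2 array signals after quantile normalization, 1 probe set per gene, given as mean ± SD. Deposited array medians were 8.57 to 8.73 in the DOX-treated vector line and 8.75 to 8.85 in the DOX-treated NLRP4 line, so the NLRP4 arrays were the brighter ones before normalization. Correlations between arrays over genes were 0.989 to 0.993 within the 2 groups (12 pairs) and 0.989 to 0.993 between them (16 pairs). Of 14 measured THP-1 identity genes, 12 lay above the median gene in the DOX-treated vector line, at a mean level of 10.35 there and 10.41 in the NLRP4 line against a median gene of 8.77. Markers of other lineages lay lower: 2 of 21 T and NK cell genes exceeded the median gene in the DOX-treated NLRP4 line, with a mean level of 7.49.

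The introduced gene separated the groups. NLRP4 read 6.99, 6.99, 7.38 and 6.83 on the vector arrays and 12.22, 11.99, 11.90 and 11.60 on the NLRP4 arrays, all with DOX. The means were 7.05 ± 0.233 and 11.93 ± 0.257 (SD, n = 4), a difference of 4.88 (SE 0.188). That is at least 29.4-fold, because the vector-line signal sat at the 13.4th percentile of genes, near the floor of the array. The exact two-sided permutation test over the 8 arrays gave p = 0.0286, the smallest its 70 splits allow, and limma gave an adjusted p of 1.72e-14. Transcripts of the transgene and of the endogenous gene are read by this probe set as one signal. NOD1, the gene introduced in the other line, was 8.40 ± 0.238 in the vector line and 8.52 ± 0.215 in the NLRP4 line, and its difference of 0.12 did not pass (exact permutation p = 0.514, limma adjusted p = 0.967).

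Few other genes differed. In limma's fit, 7 of 18417 genes passed an adjusted p of 0.05 (0.038%), 2 higher in the NLRP4 line (0.0109%) and 5 lower (0.0271%), and NLRP4 was the one called gene at 2-fold or more. Of all genes 3 differed by at least 2-fold, and the uncalled ones were PRTFDC1 at -1.10 (adjusted p = 0.213) and the small nucleolar RNA SNORD77 (lower, adjusted p = 0.693), both named after their values were seen. NLRP4 and the neural adhesion molecule NCAM2 were higher. The scavenger receptor CD36, the lysosomal protein SCARB2, the GABA receptor subunit GABBR2, the annexin pseudogene ANXA2P1 and the NF-kB inhibitor TNFAIP3 were lower. On all 7 genes the 4 arrays of one line lay above the 4 of the other, which was also true of 5.27% of all genes. At an unadjusted p of 0.05, 1126 genes passed (6.11%), 534 higher and 592 lower. The median 95% interval reached 0.229 to either side of a gene's difference, and the smallest difference called was 0.51 in size. Just outside the threshold lay HTATIP2 at -0.54 (adjusted p = 0.0676) and MAT2B, a subunit of the methionine adenosyltransferase that makes S-adenosylmethionine, at -0.56 (adjusted p = 0.0698). Without any 1 array of the vector group, or NLRP4 replicate 1 or 4, there were 2 calls, without NLRP4 replicate 2 there were 3, and without NLRP4 replicate 3 there were 6. Without 1 uninduced array, which enters only the estimate of spread, there were 4 to 10, with 4 when uninduced vector replicate 3 or uninduced NLRP4 replicate 4 was left out. NLRP4 and CD36 were called in all of the 8 fits that left out an array of the compared groups, whereas SCARB2, GABBR2 and NCAM2 were each called in 1 and TNFAIP3 and ANXA2P1 in none. The split of 2 higher and 5 lower was 1 and 0 with values as deposited and 1 and 1 with arrays centred on their medians.

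**Figure D1:**
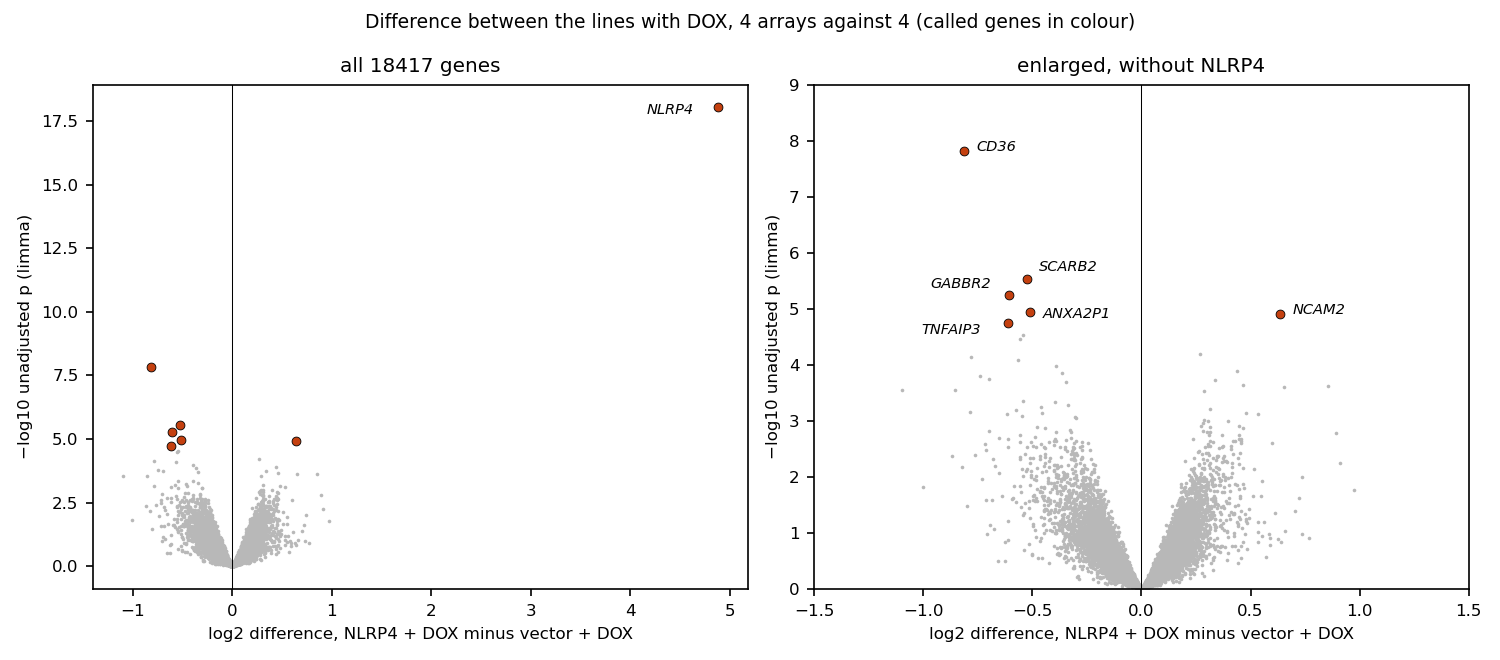
Log2 difference of each of 18417 genes between the DOX-treated NLRP4 and vector lines (x axis, 4 arrays against 4) against the unadjusted limma p on a −log10 scale (y axis); the 7 called genes are coloured. The left panel shows NLRP4 at 4.88, and the enlarged right panel shows CD36 standing apart at -0.81 while the other 5 called genes lie close above the uncalled ones.

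CD36 and SCARB2 belong to one protein family. CD36 is a class B scavenger receptor that binds oxidised lipoproteins and long-chain fatty acids and assists Toll-like receptors at the surface of monocytes. It read 10.05, 9.76, 10.08 and 9.90 on the vector arrays and 9.18, 9.07, 8.97 and 9.32 on the NLRP4 arrays. The groups did not overlap: 9.95 ± 0.146 against 9.14 ± 0.152, a difference of -0.81 (SE 0.0964, 1.76-fold lower, adjusted p = 0.000141). In bulk RNA, fewer cells with a transcript and less RNA per cell cannot be told apart.

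SCARB2, also called LIMP-2, is a lysosomal membrane protein that carries beta-glucocerebrosidase to lysosomes. Its signals were 11.83, 11.80, 11.93 and 11.87 in the vector line and 11.34, 11.36, 11.42 and 11.20 in the NLRP4 line. Every NLRP4 array was the lower, by 0.53 on average (log2 difference -0.53, SE 0.0864, 1.44-fold lower, adjusted p = 0.0181). Another member of the family, SCARB1, the high-density lipoprotein receptor, was at 0.09 (adjusted p = 0.973, 95% interval -0.19 to 0.36); it was chosen after its value was seen. Of 47 measured genes on the lysosome and V-ATPase list, which does not hold SCARB2, none passed, and their median difference was -0.01 beside 0.01 for all genes. The one with the lowest p was the protease cathepsin C (CTSC) at -0.36 (adjusted p = 0.174).

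TNFAIP3, known as A20, edits ubiquitin chains on signalling proteins and is both a target and an inhibitor of NF-kB. Its promoter is shown because the gene is itself an NF-kB target. The 250 bases before its start in RefSeq's GRCh38.p14 (chr6:137867009-137867258, + strand, 5′ to 3′) hold a kappa-B-like motif, GGAAA then any 2 bases then CCC, at 2 places given in capitals.

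TNFAIP3: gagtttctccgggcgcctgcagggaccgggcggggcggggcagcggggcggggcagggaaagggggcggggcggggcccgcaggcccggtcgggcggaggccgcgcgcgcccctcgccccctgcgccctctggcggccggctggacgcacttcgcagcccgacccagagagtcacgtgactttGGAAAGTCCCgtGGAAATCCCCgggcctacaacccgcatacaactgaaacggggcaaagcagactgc

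The motif was searched on both strands, and 1.73% of 35116 such windows in the table held it. Among the 7 called genes, 6 had a window, and TNFAIP3 was the one with a match. The match describes these letters and not a measured site. TNFAIP3 read 9.04, 9.16, 8.92 and 9.12 on the vector arrays and 8.37, 8.36, 8.44 and 8.63 on the NLRP4 arrays. The groups stayed apart, 9.06 ± 0.104 against 8.45 ± 0.123, a difference of -0.61 (SE 0.114, 1.53-fold lower). At an adjusted p of 0.0478 it was the call nearest the threshold, and it was lost when any 1 of the 8 arrays was left out.

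GABBR2 is a subunit of the metabotropic GABA-B receptor. It read 9.26, 9.31, 9.31 and 9.21 in the vector line and 8.55, 8.83, 8.63 and 8.65 in the NLRP4 line, a difference of -0.61 (SE 0.104, adjusted p = 0.0257). The lines did not overlap. Its partner subunit GABBR1, chosen after its value was seen, was at -0.02 with an interval of -0.20 to 0.16 (adjusted p = 0.991).

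NCAM2, a cell adhesion protein of the immunoglobulin superfamily, was the one gene besides NLRP4 that was called higher. It read 11.22, 10.85, 11.14 and 11.02 on the vector arrays and 11.85, 11.63, 11.55 and 11.75 on the NLRP4 arrays. The lowest NLRP4 array lay above the highest vector array, and the difference was 0.64 (SE 0.116, 1.56-fold, adjusted p = 0.038). NCAM1 was at -0.13 (adjusted p = 0.964).

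ANXA2P1 is a processed pseudogene of annexin A2, a calcium-dependent membrane-binding protein, and its signal may mix with that of the parent gene. It read 9.22, 9.36, 9.17 and 9.38 in the vector line and 8.83, 8.62, 8.83 and 8.80 in the NLRP4 line, a difference of -0.51 (SE 0.0915, adjusted p = 0.038). All NLRP4 arrays were lower. ANXA2 itself was at -0.25 (unadjusted p = 0.0346, adjusted p = 0.782), and its interval of -0.47 to -0.02 overlaps that of ANXA2P1, -0.70 to -0.32. The pseudogenes ANXA2P2 and ANXA2P3, chosen after their values were seen, were also lower, at -0.32 and -0.28 (adjusted p = 0.529 and 0.692). Without DOX they were at 0.01 and 0.03, and ANXA2 was at -0.19.

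The lines without DOX were compared on 8 arrays that enter the first comparison only through its estimate of spread. The aim was to see how much of the line difference was present without DOX. There NLRP4 was 6.92 ± 0.332 in the vector line and 8.09 ± 0.431 in the NLRP4 line, with arrays at 7.81, 7.67, 8.61 and 8.27. The difference was 1.17 (SE 0.188, adjusted p = 0.0405), a signal at least 2.25-fold above the vector line with no DOX given. In all, 3 genes passed (0.0163%): NLRP4, the receptor tyrosine kinase FLT3 at 0.56 and the interleukin-12 receptor subunit IL12RB2 at -0.45 (adjusted p = 0.0435 for each). NLRP4 was the one gene called both with and without DOX, 1 of 7 calls and 1 of 3 calls. Without single uninduced arrays, 0 to 2 genes passed without DOX: 2 without vector replicate 1, 1 without NLRP4 replicate 1 or 2, and 0 without any other.

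The 7 genes called with DOX had the same direction in the uninduced lines, where 48.9% of all genes had the same sign in both comparisons. Of the 7, 6 had uninduced arrays that did not overlap between the lines, beside 2.86% of all genes, and the same 6 had an unadjusted p under 0.05, beside 4.96% of all genes (914). CD36 read 9.83, 9.88, 10.00 and 10.03 in the uninduced vector line and 9.35, 9.64, 9.70 and 9.48 in the uninduced NLRP4 line. That difference was -0.39 (SE 0.0964), and its adjusted p of 0.446 did not pass. The uninduced differences were -0.31 for SCARB2, -0.46 for GABBR2, -0.38 for TNFAIP3 and 0.49 for NCAM2, with adjusted p of 0.364 to 0.688. ANXA2P1 was the exception at -0.03 (95% interval -0.22 to 0.16). Over the whole table the comparisons shared little: Pearson's r of their log2 differences across 18417 genes was 0.034 and Spearman's rho was -0.014, where the points share the lines and probe sets but no arrays. Of the 1126 genes with an unadjusted p under 0.05 with DOX, 74 had one without DOX in the same direction and 33 in the opposite direction. Together these were 9.5% of the first list, where 4.96% of all genes had such a p without DOX. They were 11.7% of the second list, where 6.11% of all genes had such a p with DOX. Both shares were thus above those of all genes. However, both comparisons use 1 estimate of spread for each gene, taken from all 24 arrays. A gene with a small estimate tends to have a low p in both, so these shares do not come from independent tests. The same holds for the unadjusted p of the 6 genes.

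Whether a line difference depended on DOX was tested directly, as the difference between the line comparisons. Only NLRP4 passed (1 gene, 0.00543%), at 3.71 (SE 0.266, adjusted p = 1.43e-08). The remaining called genes did not: CD36 was at -0.42 (95% interval -0.70 to -0.14, unadjusted p = 0.00516, adjusted p = 0.93) and ANXA2P1 at -0.48 (interval -0.75 to -0.21, adjusted p = 0.854). The intervals of SCARB2 (-0.47 to 0.04), GABBR2 (-0.45 to 0.15), TNFAIP3 (-0.57 to 0.10) and NCAM2 (-0.19 to 0.49) included 0. After NLRP4 the lowest p belonged to the small nucleolar RNA SNORD58A at -1.14 (adjusted p = 0.152). Its arrays were 10.34, 10.78, 10.32 and 10.26 in the vector line and 10.14, 9.75, 9.72 and 10.06 in the NLRP4 line with DOX. Next was CDK1, the kinase that drives entry into mitosis, at -0.61 (adjusted p = 0.29), which was 0.30 lower with DOX and 0.31 higher without it. Neither passed.

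Within the NLRP4 line, DOX against no DOX gave 3 called genes (0.0163%), and this comparison shares the 4 DOX arrays with the main one. NLRP4 rose by 3.84 (adjusted p = 3.73e-12). METTL23, a histone arginine methyltransferase, was 0.58 lower, from 9.15 to 8.57 (log2 difference -0.58, adjusted p = 0.0296), and the pseudogene HSD3BP4 was 0.91 higher, from 7.32 to 8.23 (adjusted p = 0.0296). Between the DOX-treated lines METTL23 was at -0.40 (adjusted p = 0.319) and HSD3BP4 at 0.35 (adjusted p = 0.782). CD36 went from 9.54 ± 0.159 to 9.14 ± 0.152 with DOX in the NLRP4 line, at -0.41 (adjusted p = 0.322), and was 9.94 and 9.95 in the vector line.

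A comparison chosen after the data were seen averaged the line difference over both DOX states, 8 arrays against 8, and so contains the 8 arrays of the main comparison. It called 16 genes (0.0869%), 7 higher and 9 lower in the NLRP4 line. All 16 had one direction with and without DOX, which choosing genes by the average of both differences favours. CD36 was at -0.60 (SE 0.0682, adjusted p = 6.05e-05), GABBR2 at -0.53, TNFAIP3 at -0.49, SCARB2 at -0.42 and NCAM2 at 0.56. ANXA2P1 was not called (-0.27, adjusted p = 0.196). FLT3, a cytokine receptor of haematopoietic progenitors, was called here and not in the main comparison, higher by 0.50 (adjusted p = 0.000935). It read 10.43, 10.23, 10.26 and 10.26 in the DOX-treated vector line and 10.67, 10.75, 10.97 and 10.54 in the DOX-treated NLRP4 line, without overlap.

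The azurophil granule protease cathepsin G (CTSG) was higher by 0.24 (adjusted p = 0.00461), with a spread of 0.0241 to 0.0584 (SD) between arrays of a group. LST1, a transmembrane protein of leukocytes, was higher by 0.34, the transcription factor DACH1 by 0.46 and the metalloproteinase inhibitor TIMP3 by 0.71. Lower were IL12RB2 (-0.38), the NADP-dependent malic enzyme ME1 (-0.64), the interferon-inducible SAMD9L (-0.61), the syntaxin-binding protein STXBP5 (-0.45) and HTATIP2 (-0.39). Adjusted p-values of these 8 genes besides CTSG ran from 0.00165 to 0.039. When single arrays were left out, 10 to 21 genes were called, and the count of 10 came without replicate 3 of the DOX-treated vector line. The set of 10 called in all 16 such fits was NLRP4, CD36, NCAM2, TNFAIP3, GABBR2, SCARB2, FLT3, IL12RB2, CTSG and LST1. Of these, only NLRP4 and CD36 also passed under every alternative of processing. NCAM2, SCARB2, FLT3 and IL12RB2 did not pass with arrays centred on their medians. TNFAIP3 and GABBR2 did not pass with values as deposited, and CTSG and LST1 passed in neither.

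**Figure D2:**
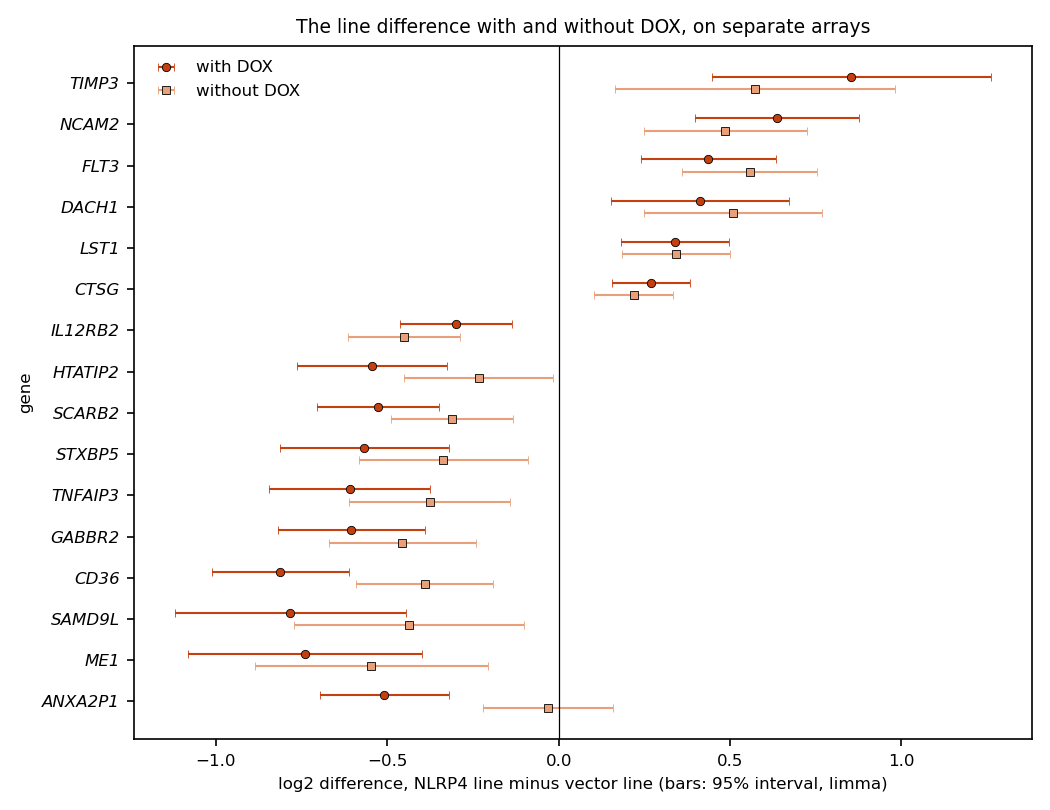
Log2 difference between the NLRP4 and vector lines with DOX (circles) and without DOX (squares), which use separate arrays (4 against 4 each). Bars are limma's 95% intervals, whose spread is estimated from all 24 arrays. Shown are ANXA2P1 and the genes called after averaging over DOX, without NLRP4. For the 15 averaged calls both points lie on one side of 0, which choosing them by the average favours. ANXA2P1 is at -0.51 with DOX and -0.03 without.

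The NOD1 line gives values for the same genes in another line made the same way. Its comparison with the vector line uses the same 4 vector arrays, and 25.8% of genes were called in it. Between the NLRP4 and NOD1 lines with DOX 25.4% were called. That comparison uses the same 4 NLRP4 arrays by which the genes of the main comparison were called, so it is no separate test of them. CD36 was lower than the vector line in both, at -0.81 in the NLRP4 line and -0.58 in the NOD1 line (adjusted p = 6.86e-05), and NLRP4 minus NOD1 was -0.23 (adjusted p = 0.0804, 95% interval -0.43 to -0.03). NCAM2 was higher in both and most so in the NOD1 line, at 1.28, where the DOX arrays averaged 12.34 ± 0.0399. TNFAIP3 differed in direction. It was 0.33 above the vector line in the NOD1 line (adjusted p = 0.0339) and 0.61 below it in the NLRP4 line, and the lines differed by -0.94 (adjusted p = 1.42e-06). GABBR2 was at -0.15 in the NOD1 line (adjusted p = 0.334) and SCARB2 at -0.22 (adjusted p = 0.0675). Both were lower in the NLRP4 than in the NOD1 line, by 0.46 and 0.31 (log2 differences -0.46 and -0.31, adjusted p = 0.00182 and 0.00941). Some genes called only outside the main comparison also differed between the NOD1 and vector lines with DOX. FLT3 (0.56), LST1 (0.57), CTSG (0.42), TIMP3 (1.17) and STXBP5 (-0.83) went the same way as in the NLRP4 line (adjusted p = 4.02e-06 to 9.57e-05). IL12RB2 (0.31), HTATIP2 (0.40) and ME1 (0.58) went the other way (adjusted p = 0.00472 to 0.00965). DACH1 (0.07) and SAMD9L (-0.17) were not called. NLRP4 itself was 7.03 ± 0.129 in the NOD1 line with DOX, against 7.05 in the vector line. The NOD1 line already stood apart for some of these genes without DOX. There TNFAIP3 averaged 9.57 in the NOD1 line and 8.99 in the vector line, CD36 9.26 and 9.94, and NCAM2 12.24 and 11.03. SCARB2 averaged 11.58 and 11.83, and GABBR2 9.26 and 9.23. Whether NOD1 induction changed any of them was not tested.

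Gene lists were described by their counts and medians. Of 35 lists with 1126 entries, 3 held a called gene: NLRP4 among the NLR family, TNFAIP3 among NF-kB genes and CD36 on the list of Toll-like receptors and adaptors. The median difference of a list lay between -0.13 and 0.14, beside 0.01 for all genes, and no list had more than 1 called member. Of 20 NLR family genes only NLRP4 was called. NAIP, the inflammasome sensor of flagellin, was at 0.29 (adjusted p = 0.814), NOD2 at -0.12 and NLRP3 at 0.07.

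Genes that work with NLRP4 in TBK1 and autophagy control gave no call among 29, with 12 above 0 and a median of -0.04. TBK1 was at -0.13 (95% interval -0.44 to 0.18), its ligase DTX4 at 0.09 and the deubiquitinase USP38 at -0.16. Beclin 1 (BECN1) was at -0.14 (interval -0.39 to 0.11). The lowest p belonged to IFIH1, the cytosolic RNA sensor MDA5, at -0.45 (unadjusted p = 0.00821, adjusted p = 0.643), with the adaptor TRAF3 at -0.36, RIGI at -0.37 and TANK at -0.24. The 33 core autophagy genes gave no call, with 16 above 0. Their receptor OPTN was at -0.46 and the lipid scramblase ATG9A at 0.43 (adjusted p = 0.361 and 0.517).

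Of 41 interferon-stimulated genes none was called and 10 lay above 0, with a median of -0.11 with DOX and -0.10 without. With DOX, 5 had an unadjusted p under 0.05 in the lower direction and 1 in the higher (IRF7, at 0.16), together 14.6% of the list beside 6.11% of all genes. SAMD9L was the lowest at -0.78 (adjusted p = 0.119), reading 9.98, 9.35, 9.72 and 9.76 in the vector line and 8.89, 8.93, 8.80 and 9.06 in the NLRP4 line. HERC5, which attaches ISG15 to proteins, was at -0.55 (adjusted p = 0.408), while ISG15 was at 0.06 and MX1 at -0.31. The list median stayed below that of all genes under each normalization tried, at -0.14 relative to it when arrays were centred on their medians.

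Among 32 NF-kB genes TNFAIP3 was the one called, and the list median was 0.02, which turned to -0.01 relative to all genes when arrays were centred. NFKBIZ was at -0.28 (adjusted p = 0.741) and NFKBIA, the inhibitor IkB-alpha, at 0.15 (adjusted p = 0.949). The 42 cytokines and chemokines gave no call, with TNF at 0.04, IL1B at -0.02 and CXCL8 at -0.19. The 24 inflammasome genes gave none either, with CASP1 at -0.43 (adjusted p = 0.692).

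The list with the lowest median was mitosis and G2/M, with 45 genes measured, none called and 8 above 0. Its median was -0.13 with DOX and -0.06 without, and 11 genes had an unadjusted p under 0.05, all lower, which is 24.4% of the list beside 6.11% of all genes. The 4 NLRP4 arrays each had a list median below the vector mean, from -0.15 to -0.08. Cyclin B1 (CCNB1) was at -0.23, the spindle kinase AURKA at -0.22 and CDK1 at -0.30, with adjusted p of 0.517 to 0.602. Relative to all genes the median was -0.14, and it was -0.32 when arrays were centred or left as deposited. Of 35 proteasome subunits none was called and 7 lay above 0, with a median of -0.07, and PSMB9, an immunoproteasome subunit, was at -0.25. Of 31 NRF2 antioxidant genes none was called, 11 lay above 0 and the median was -0.07. ME1 was at -0.74 (adjusted p = 0.183), the glutathione synthesis enzyme GCLC at -0.56 and the quinone reductase NQO1 at -0.53.

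The highest median was that of glycolysis and hypoxia genes, 0.14 with DOX and 0.07 without, with 35 measured, none called, 26 above 0 and 8 at an unadjusted p under 0.05, all higher. Those 8 are 22.9% of the list, beside 6.11% of all genes, and 52.0% of all genes lay above 0. The arrays did not share this level: their list medians against the vector mean ran from -0.05 to 0.26. Pyruvate kinase (PKM) read 11.90, 11.84, 11.89 and 11.44 on the NLRP4 arrays and 11.37, 11.48, 11.45 and 11.40 on the vector arrays, so 3 of 4 NLRP4 arrays were above all vector arrays. Its difference was 0.34 (adjusted p = 0.56). The glucose transporter SLC2A3 was at 0.45 (adjusted p = 0.745), with replicate 4 again the lowest NLRP4 array. Replication-dependent histones (44 measured, median 0.12) and cholesterol synthesis genes (28 measured, 26 above 0, median 0.09) gave no call. Here too the NLRP4 arrays differed. Their list medians against the vector mean ran from -0.07 to 0.32 for histones and from 0.0012 to 0.23 for cholesterol genes. Relative to all genes the cholesterol median was 0.0876, and 0.0038 when arrays were centred or left as deposited. Amino acid response genes of ATF4 had a median of 0.08 with 32 of 41 above 0, and the amino acid transporter SLC38A2 was at 0.31 (adjusted p = 0.517).

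**Figure D3:**
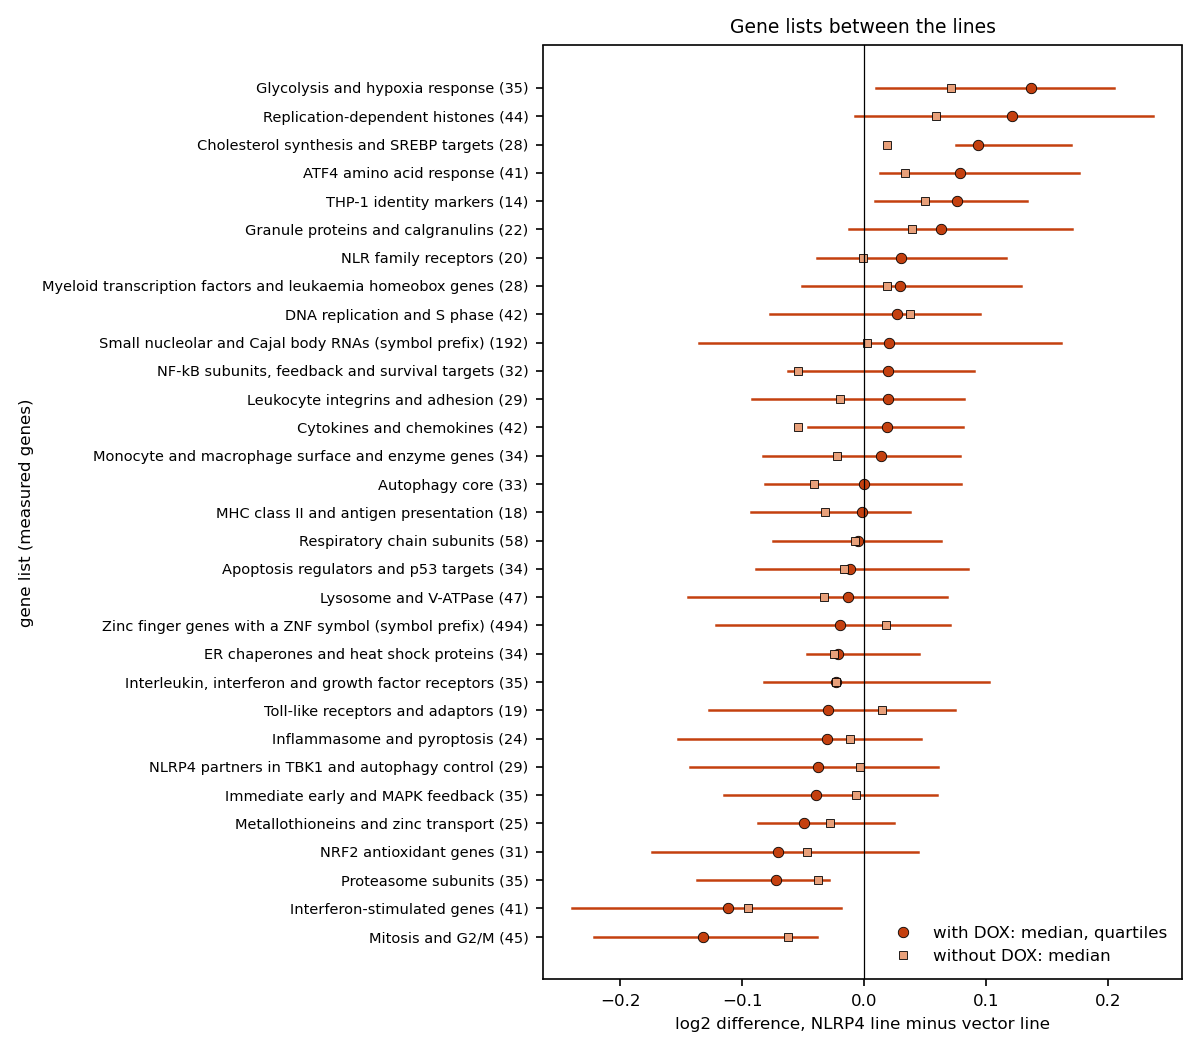
Median log2 difference between the NLRP4 and vector lines for 31 gene lists (4 lists of other-lineage markers are not drawn), with DOX (circles, lines from the lower to the upper quartile of genes) and without DOX (squares); the number of measured genes is in brackets. The medians with DOX run from -0.13 for mitosis and G2/M to 0.14 for glycolysis and hypoxia.

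Granule genes had 16 of 22 above 0, none called and a median of 0.06. Alongside CTSG, azurocidin (AZU1) was at 0.30 and neutrophil elastase (ELANE) at 0.25, with adjusted p of 0.692 and 0.777. The calgranulin S100A8 went the other way at -0.87 (adjusted p = 0.56), with 1 NLRP4 array at 8.16 and the others between 9.23 and 9.46. Runs of at least 4 neighbouring genes called in one direction were looked for in RefSeq gene order, and 0 were found, both in the main comparison with its 7 calls and in the comparison averaged over DOX.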

How the data were processed

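Total RNA was hybridised to Affymetrix Human Gene ST arrays. The authors deposited a table of log2 signals for each probe set. The submitters' processing notes name RMA and oligo; no source used here gives their versions, the genome build or the order of steps. Because array distributions differed, the gene table was quantile-normalized. Of 33297 probe sets, 19460 had 1 symbol, 1754 several and 12083 none; 19429 of the named ones matched RefSeq (GRCh38.p14) by Entrez ID. The brightest probe set stood for a gene, leaving 18417 genes.

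Means of 6 groups over 24 arrays (18 residual degrees of freedom) were fitted with limma 3.58.1 in R 4.3.3 and tested on simulated data; a call meant a Benjamini-Hochberg adjusted p below 0.05. Adjusted p-values are limma's, over all genes. Named genes were NLRP4, NOD1, called genes without array overlap (up to 12 each way), up to 4 called members per list, and the lowest p for DOX dependence; further genes are the lowest-p list members or were chosen after their values were seen. The comparison, lists and rules were chosen with earlier results of these data known. Alternatives covered normalization, array brightness, variance model, array weights, dim genes, probe set choice and leaving out arrays. Precision is limited by having 4 arrays in each group.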

Additional observations from a re-analysis of the deposited data

Results flagged for a closer look

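Among 92 groups of 4 arrays examined (23 named genes), 3 held an array far from the others. Chance gives about 1 in 20, so this was no more than chance gives. ANXA2P1 was 8.62 on replicate 2 of the DOX-treated NLRP4 line, with the others between 8.80 and 8.83. FLT3 was 10.43 on replicate 1 of the DOX-treated vector line, with the others between 10.23 and 10.26. SNORD58A was 10.78 on replicate 2 of the DOX-treated vector line, with the others between 10.26 and 10.34.

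The NLRP4 difference between the lines was 3.71 larger on the log2 scale with DOX than without it (limma, difference of the differences).

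When all 33297 probe sets were fitted together, an analysis added after the data were seen, 5 were called: NLRP4, CD36, SCARB2 and 2 probe sets that the annotation used here does not name. Probe set 7893432 was 1.09 higher in the DOX-treated NLRP4 line (SE 0.167, limma adjusted p = 0.0163). It read 7.94, 9.01, 8.18 and 8.60 there, 7.27, 7.30, 7.34 and 7.43 in the DOX-treated vector line, and 6.45 to 6.91 in the uninduced NLRP4 line, below the 7.27 to 7.79 of the uninduced vector line. Probe set 7958826 was 2.15 higher (SE 0.335, limma adjusted p = 0.0163), at 9.49, 11.10, 10.03 and 9.55 against 7.86, 8.36, 7.09 and 8.24. In the uninduced lines it read 8.65 to 9.43 with NLRP4 and 8.15 to 9.14 with the vector, which overlap.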

How the results depend on the processing

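The 7 called genes kept their direction under all 10 alternatives and in all 8 fits with 1 array fewer. NLRP4 was called in each of them, at 4.61 to 5.00, and CD36 in all but the fit to values as deposited (adjusted p = 0.136). SCARB2 passed in 7 of the 10 alternatives, GABBR2 in 6, NCAM2 and ANXA2P1 in 5 and TNFAIP3 in 4. The cause of these changes was not tested.

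In place of 7 calls (2 higher, 5 lower) there was 1 (1 and 0) with values as deposited, 2 (1 and 1) with centred arrays, 3 (1 and 2) with cyclic loess or with array brightness as a covariate, 4 (1 and 3) with only the arrays compared, and 18 (7 and 11) with array weights. As deposited, the median gene was 0.115 higher in the NLRP4 line. Without single arrays of the 2 compared groups there were 2 to 6 calls, 1 to 3 higher, 1 to 3 lower and 1 to 2 of at least 2-fold, and without single uninduced arrays 4 to 10 calls. Calls without DOX, 3 in the report, were 0 as deposited, with only the arrays compared or without the 4 dimmest arrays, 1 with centred arrays, and 0 to 2 without single arrays. Genes called both with and without DOX, 1 in the report, were 0 as deposited, with only the arrays compared or without the 4 dimmest arrays, 2 with trend and robust moderation or array weights, and 0 to 1 without single arrays. Calls for DOX dependence rose from 1 to 2 with centred arrays, cyclic loess or array weights, and remained 1 in each fit without a single array. Calls averaged over DOX were 7 as deposited, 4 with centred arrays, 28 with array weights and 10 to 21 without single arrays, against 16. No named gene's value that was called changed direction. Some list medians near 0 changed sign relative to all genes: with centred arrays DNA replication went from 0.0205 to -0.135, THP-1 identity from 0.0699 to -0.0337 and NF-kB from 0.0135 to -0.0087. Among named genes' other values 185 fell out of the called range and 11 entered it, and 735 kept their side; 57 list medians moved by more than the spread between arrays and 573 did not. No paired analysis was possible because the labels carry no replicate numbers shared between groups.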
